A study of Mus musculus with 18 samples.

Results

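The comparison described here is how far the response of mouse natural killer (NK) cells to priming with interleukin 15 (IL-15) differed between cells that had lost Acly and cells that had kept it. For each gene the priming response is the log2 ratio of its level in primed cells to its level in fresh cells, and the response difference is the knock-out response minus the wild-type response. The genes were taken from the table of gene counts by that contrast alone. It used 12 of the 18 libraries, 3 in each of 4 groups. A response difference passed the threshold (edgeR quasi-likelihood test, Benjamini-Hochberg adjusted p under 0.05) for 1559 of 14864 genes tested, which is 10.5%. Each of these genes was put in 1 of 4 classes by the sign and size of its fitted responses: a lost rise or a lost fall, where the larger response was that of wild type, and a larger rise or a larger fall, where it was that of the knock-out.

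IL-15 is the cytokine on which NK cells depend for survival, and at high dose it drives them into growth, division and the build-up of cytotoxic granules. Primed NK cells raise glucose uptake and glycolysis, leave the quiescent programme held by factors such as KLF2, and change the receptors that guide them between blood and tissue. ATP-citrate lyase, the product of Acly, cleaves citrate exported from mitochondria into acetyl-CoA and oxaloacetate. The acetyl-CoA feeds fatty acid and cholesterol synthesis and the acetylation of histones and other proteins.

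All mice carried a YFP reporter in the Rosa locus and a tamoxifen-dependent Cre recombinase expressed from Ncr1 (Rosa YFP/YFP, Ncr1 CRE-ERT2). Knock-out mice were in addition Acly fl/fl, and mice called wild type here lacked the floxed allele but had the same Cre and reporter. Both genotypes were fed tamoxifen for 48 hours, and YFP+ NK cells were sorted from the spleen 5 days after the diet ended, so that both genotypes had been exposed to the drug and to active Cre. The 4 groups were primed knock-out, fresh knock-out, primed wild type and fresh wild type, where primed cells had spent 72 hours in culture with 100 ng/ml of IL-15. The labels name no group cultured without IL-15, so IL-15 and time in culture cannot be told apart in the priming response. Cre acts only in cells that express Ncr1, and the labels leave unsaid if the replicates of a group came from separate animals.

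The 12 libraries held 14772350 to 34111299 counts. The smallest, primed knock-out replicate 1, detected 14695 genes, against 17877 or more in each of the other 11. The spread between replicates was wider after priming: the common biological coefficient of variation was 0.38 in primed and 0.142 in fresh knock-out cells, and 0.281 in primed and 0.183 in fresh wild-type cells. NK markers summed to 15035 to 19615 CPM (counts scaled to library size with TMM factors) in primed and 23078 to 28146 CPM in fresh knock-out libraries. In wild type they summed to 17131 to 21219 CPM in primed and 21976 to 24279 CPM in fresh libraries. The sum was thus lower after priming in both genotypes, and the primed ranges of the genotypes overlapped. Its largest member in every library was Gzma. The 11 monocyte, macrophage and neutrophil markers summed to 108 to 141 CPM in primed and 511 to 665 CPM in fresh knock-out libraries, against 127 to 166 CPM in primed and 510.1 to 608 CPM in fresh wild-type libraries. Most of each sum was 1 gene, Itgam, with 70.6 to 101 CPM in primed and 494 to 648 CPM in fresh knock-out libraries. In wild type Itgam stood at 73.1 to 99.2 CPM in primed and 489 to 581 CPM in fresh libraries. Lyz2 was at 0 in all 6 primed libraries and at or below 6.12 CPM in the fresh ones. Cd68 measured 37.2 to 41.1 CPM in primed and 10.5 to 13 CPM in fresh knock-out libraries. In wild type it stood at 51.8 to 65.7 CPM in primed and 11.1 to 14.6 CPM in fresh libraries. The sum over 9 erythroid and platelet markers was 27.8 to 30.3 CPM in fresh knock-out libraries and 123 to 213 CPM in fresh wild-type libraries, and at most 1.81 CPM in any primed library. Dendritic cell markers, mostly Itgax, summed to 168 to 218 CPM in primed knock-out and 105 to 121 CPM in primed wild-type libraries. B cell markers, mostly Ighm, summed to 287 to 331 CPM in fresh knock-out and 242 to 244 CPM in fresh wild-type libraries. T cell markers summed to 32.3 to 39.7 CPM in primed knock-out and 41.6 to 76 CPM in primed wild-type libraries. Cd3g alone of 5 tested (20%, beside 10.5% of all genes) was called, as a larger fall. It measured 7.5, 12 and 11.8 CPM in primed and 29.2, 26.3 and 30.3 CPM in fresh knock-out libraries. Wild-type Cd3g stood at 42.9, 30.7 and 22.4 CPM in primed and 34.7, 14 and 18.2 CPM in fresh libraries. The 7 ILC markers summed to 144 to 212 CPM in primed and 297 to 350 CPM in fresh knock-out libraries. In wild type they summed to 105 to 169 CPM in primed and 310 to 453 CPM in fresh libraries. One of them, Il7r, measured 72.7, 21.4 and 16.2 CPM in fresh and 15.9, 3.98 and 2.98 CPM in primed wild-type replicates 1, 2 and 3. Knock-out Il7r stood at 48.7, 38.8 and 33.6 CPM in fresh and 11, 14.9 and 12.7 CPM in primed libraries. Gata3, another, measured 49.4, 53.7 and 134 CPM in primed wild-type replicates 1, 2 and 3, highest where Il7r was lowest. By Xist and Y-linked genes, replicate 2 of both knock-out groups and replicate 1 of both wild-type groups were female, and the other libraries male. A marker sum does not separate fewer cells of a kind from a lower level of 1 gene in NK cells. Whether these differences in marker levels or sex had a part in the results was not tested.

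Acly itself, on chromosome 11 from 100476353 to 100528000 on the minus strand (mm10), measured 41.4, 38.1 and 48.9 CPM in primed and 16, 15.3 and 25.4 CPM in fresh knock-out libraries. Wild-type Acly stood at 227, 279.6 and 262 CPM in primed and 232, 254 and 265 CPM in fresh libraries. Every knock-out library lay below every wild-type library. In wild type the level did not change detectably with priming (log2 response 0.03, adjusted p = 0.894), while the residual transcript of the knock-out rose by 1.17 on the log2 scale (adjusted p = 9.37e-05). The response difference of 1.14 ± 0.271 (SE; adjusted p = 0.0131) put the targeted gene in the larger-rise class. Values are per gene, so deletion of the floxed part was not measured. In these bulk libraries fewer cells of a kind and less RNA per cell cannot be told apart, here between more cells that kept the allele and more transcript per cell.

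Of the 1559 genes, 606 (4.08% of all genes tested) responded more positively in the knock-out and 953 (6.41%) more negatively. The lost-rise class was the largest with 603 genes, 4.06% of all genes tested. There were 360 lost falls (2.42%), 350 larger falls (2.35%) and 246 larger rises (1.66%). The median log2 response of the lost-rise genes was 0.14 in knock-out and 1.03 in wild type, and that of the lost-fall genes was -0.24 in knock-out and -1.53 in wild type. The larger rises had a median response of 1.55 in knock-out and 0.10 in wild type, and the larger falls -0.96 in knock-out and 0.05 in wild type. These medians follow from the way the genes were picked and carry no test. Over all 14864 genes the median response was -0.06 in both genotypes and the median response difference was -0.01. Across those genes the knock-out response followed the wild-type response with Pearson's r of 0.749 and a slope of 0.717, a description of genes measured in the same libraries.

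**Figure D1:**
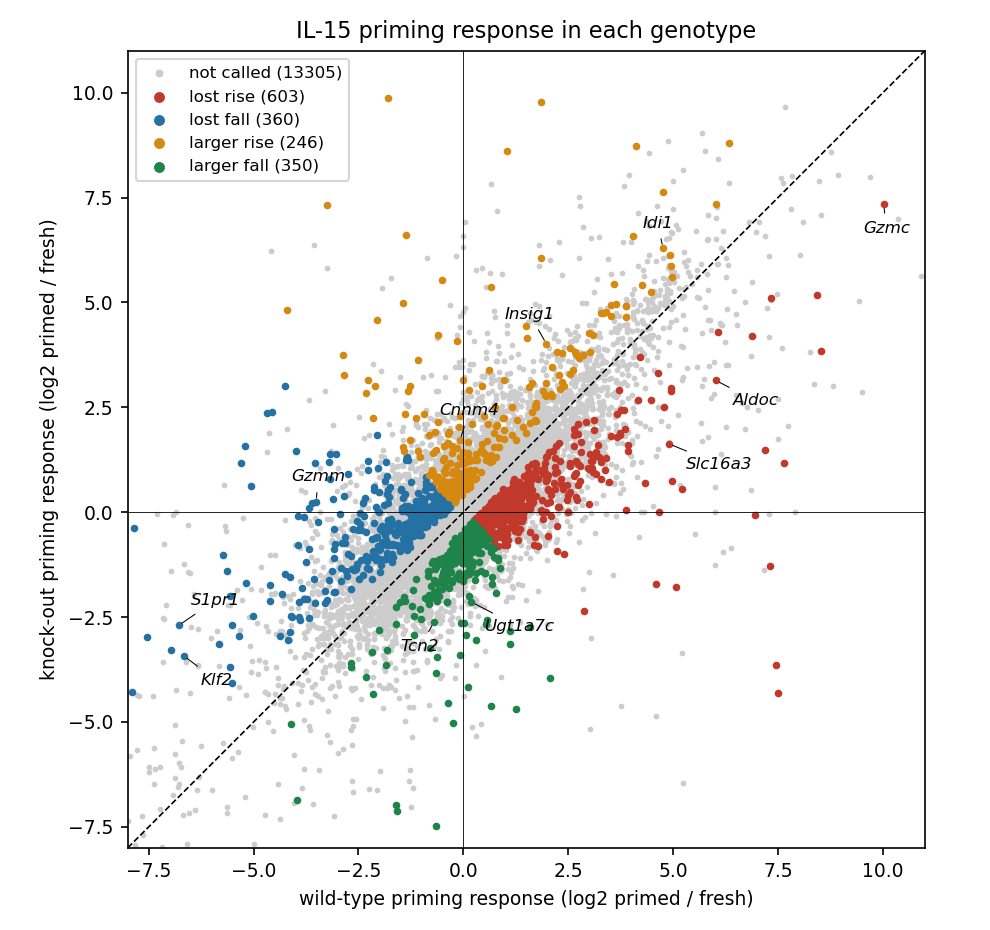
Priming response of each gene in knock-out (vertical axis) against wild type (horizontal axis), both as log2 of primed over fresh; each point is a gene, coloured by class, and the dashed line marks equal responses. The 603 lost rises lie below the line on the right and the 360 lost falls above it on the left. 30 genes, 2 of them called, lie outside the axes.

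By itself, the priming response passed the threshold for 7238 genes (48.7%) in knock-out and 7987 (53.7%) in wild type. Among the lost rises, 342 genes changed in wild type only, 206 rose in both genotypes and 55 fell in knock-out while rising in wild type. Among the lost falls, 204 changed in wild type only, 134 fell in both and 20 rose in knock-out while falling in wild type. Of the larger rises 136 changed in knock-out only and 90 rose in both, and of the larger falls 239 changed in knock-out only and 71 fell in both. A response past the threshold in 1 genotype only is a description, and the response difference is its test.

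A response difference is also the genotype difference in primed cells minus that in fresh cells. Picking genes on it favours a fresh difference of the opposite sign, which 559 of the 603 lost-rise genes and 72% of all genes tested had, so that these counts are a description. The lost-rise genes had a median fresh difference of 0.30 and a median primed difference of -0.55 on the log2 scale. The genotype difference passed the threshold for 1238 of the 1559 genes in primed cells (15.5% of all genes did) and for 4 in fresh cells (0.0673% of all genes did). For 234 genes, 144 of them lost rises, the fitted genotype difference was larger in fresh than in primed cells.

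The total rests on all 12 libraries. Without primed wild-type replicate 3 it was 2453 genes, and it was 1003 without fresh knock-out replicate 1, 870 without fresh knock-out replicate 3, 911 without fresh wild-type replicate 2, 940 without primed wild-type replicate 1 and 842 without primed wild-type replicate 2. There were 679 genes called in the full data and in all 12 fits with 1 library left out, made up of 251 lost rises, 171 lost falls, 108 larger rises and 149 larger falls, and 718 of the 1559 differed by more than 1 on the log2 scale. Called genes had a higher median level than all genes tested, 5.16 against 3.33 mean log2 CPM, and 90.1% were protein coding against 78.8%.

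**Figure D2:**
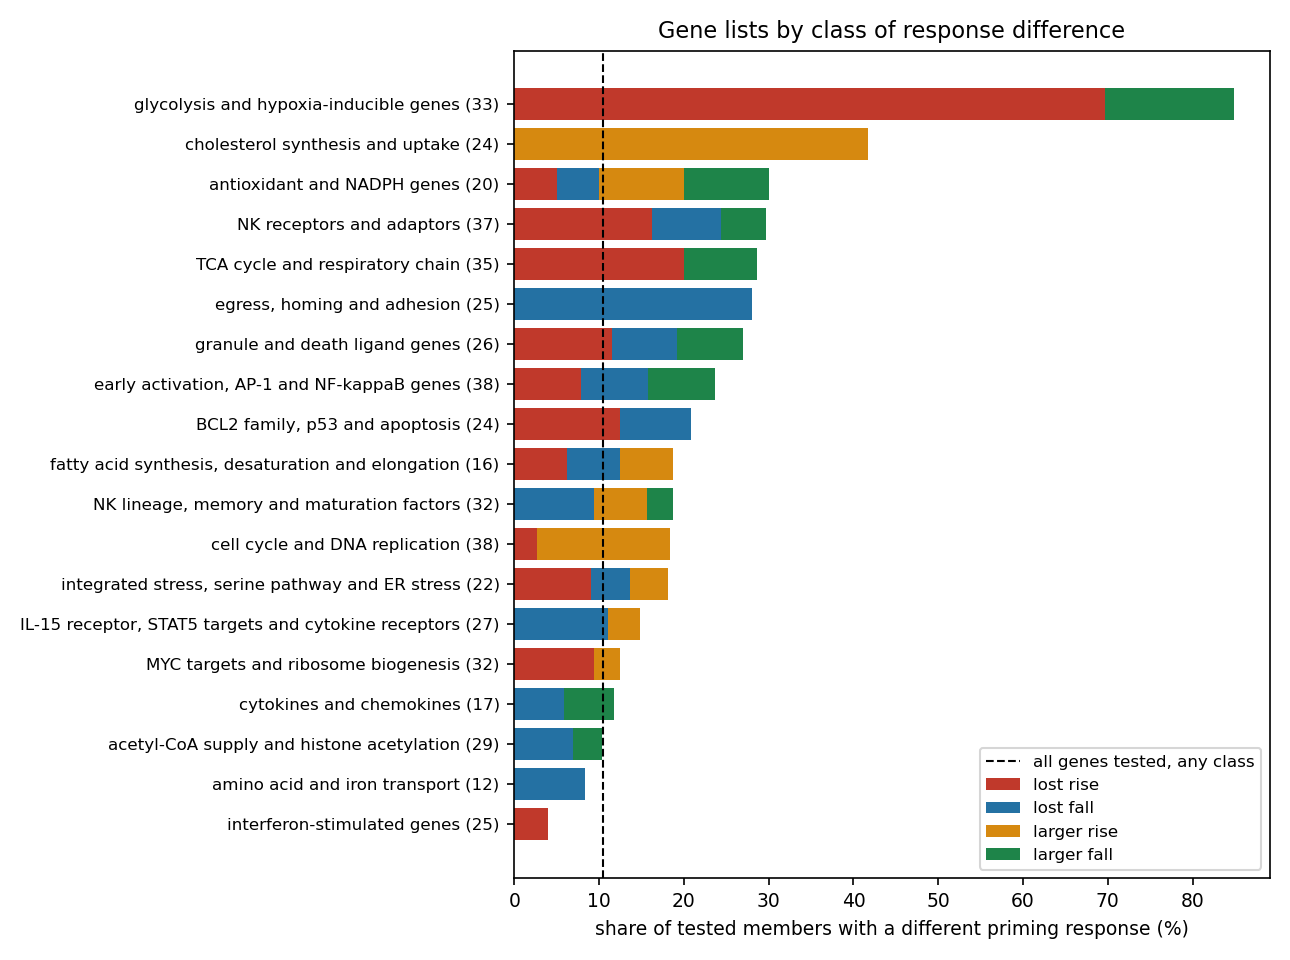
Share of the tested members of 19 gene lists (vertical axis, number tested in brackets) whose response differed between genotypes (horizontal axis, %), stacked by class; the dashed line is the 10.5% of all genes. Glycolysis stands at 84.8%, mostly lost rises, and cholesterol synthesis at 41.7%, all larger rises.

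Of the 19 lists, glycolysis had the largest share of genes with a response difference, most of them lost rises. Of 33 tested genes of glycolysis and the hypoxia-inducible programme, 28 responded less in the knock-out and 0 responded more: 23 were lost rises and 5 larger falls (84.8%, beside 10.5% of all genes). The median response was 0.39 in knock-out and 2.00 in wild type, and the median response difference was -1.52, beside -0.01 over all genes. The fitted difference was below 0 for 32 of the 33, and 21 of the 28 were called whichever library was left out. The count was 28 without primed wild-type replicate 3 and 24 without primed knock-out replicate 1. The exception in sign was Hif1a, the oxygen-regulated transcription factor subunit, at 23.2 ± 1.77 CPM in primed and 13.6 ± 1.18 CPM in fresh knock-out cells, against 27.2 ± 2.81 CPM in primed and 17.4 ± 1.34 CPM in fresh wild-type cells (SD, n = 3 each), a difference of 0.13 ± 0.227 (SE; adjusted p = 0.764).

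Slc16a3, which encodes the lactate exporter MCT4, lies on chromosome 11 from 120948480 to 120960868 on the plus strand (mm10). It measured 11.5, 13.5 and 17.2 CPM in primed and 3.76, 5.84 and 4.06 CPM in fresh knock-out libraries. Wild-type Slc16a3 stood at 95.8, 135 and 151 CPM in primed and 3.33, 3.71 and 5.76 CPM in fresh libraries. The fresh groups overlapped, and the primed knock-out libraries stood between the fresh ones and the primed wild type. Priming raised it 3.1-fold in knock-out and 29.9-fold in wild type, a response difference of -3.27 ± 0.376 (SE; adjusted p = 0.000105). Pgk1, phosphoglycerate kinase, lies on chromosome X from 106187100 to 106203699 on the plus strand and measured 332, 278 and 339 CPM in primed and 132, 145 and 137 CPM in fresh knock-out libraries. Wild-type Pgk1 stood at 919, 1372 and 1110.5 CPM in primed and 113, 117 and 122 CPM in fresh libraries. Fresh knock-out libraries were all slightly above fresh wild-type ones, primed knock-out libraries all below primed wild-type ones, and the response difference was -2.08 ± 0.201 (SE; adjusted p = 1.33e-05).

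Of the promoters of the listed genes, those of Slc16a3 and Pgk1 are printed because these were the called glycolytic genes of smallest p. Each window is 300 bases around the annotated start (RefSeq, GRCm38.p6), read 5′ to 3′, and capitals mark the letters ACGTG on either strand, the core that hypoxia-inducible factors recognise. Both windows are on the plus strand, Slc16a3 at chr11:120948817-120949116 and Pgk1 at chrX:106186850-106187149.
Slc16a3: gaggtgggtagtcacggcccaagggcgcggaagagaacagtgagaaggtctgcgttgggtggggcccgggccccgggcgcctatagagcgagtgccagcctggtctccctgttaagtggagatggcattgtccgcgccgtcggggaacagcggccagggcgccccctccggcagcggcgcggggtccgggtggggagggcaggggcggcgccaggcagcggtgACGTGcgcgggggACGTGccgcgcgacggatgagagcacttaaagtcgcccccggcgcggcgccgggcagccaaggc
Pgk1: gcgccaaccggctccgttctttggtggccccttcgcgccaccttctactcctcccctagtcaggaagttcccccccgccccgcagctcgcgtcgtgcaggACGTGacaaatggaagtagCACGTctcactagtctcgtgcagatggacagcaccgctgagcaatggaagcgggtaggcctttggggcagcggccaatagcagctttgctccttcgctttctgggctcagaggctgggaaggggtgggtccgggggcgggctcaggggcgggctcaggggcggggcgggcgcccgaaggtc
Each holds 2 matches. ACGTG occurred in 53.2% of the 47 windows of 31 matched genes of the list and in 19.6% of all 32851 RefSeq windows, and CACGTG, which contains it and is the E-box of MYC and MLX factors, in 10.6% and 7.15%. A match describes letters and shows no binding. The list was put together to hold hypoxia-inducible genes, so a high share of this core follows in part from how its members were chosen. Called and uncalled members were counted alike, so the share tells nothing about the response difference.

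The pattern ran along the pathway. Glucose entry through the transporter Slc2a1 measured 61.7, 57.9 and 85.8 CPM in primed and 81.8, 86.5 and 86.2 CPM in fresh knock-out libraries. Wild-type Slc2a1 stood at 138, 203 and 176 CPM in primed and 74.5, 65.6 and 78.1 CPM in fresh libraries. Only the primed wild-type libraries were raised, so the gene changed in wild type (1.24, adjusted p = 8.86e-06) and not detectably in knock-out (-0.31, adjusted p = 0.142). Aldoa, the aldolase of the middle of the pathway, reached 1242 ± 271 CPM in primed and 742 ± 35 CPM in fresh knock-out cells, against 4247 ± 697 CPM in primed and 622 ± 34.4 CPM in fresh wild-type cells (SD, n = 3 each). Gapdh, the dehydrogenase that reduces NAD in glycolysis, reached 318 ± 119.9 CPM in primed and 156 ± 8.89 CPM in fresh knock-out cells, against 894 ± 216 CPM in primed and 112 ± 17.2 CPM in fresh wild-type cells. The differences were -2.03 for Aldoa, -1.97 for Gapdh, -2.07 for the isomerase Tpi1 and -1.52 for pyruvate kinase Pkm, with adjusted p of 0.000203, 0.00521, 0.000183 and 0.000637. Ldha, the lactate dehydrogenase subunit, measured 1360.1, 1320.3 and 1752 CPM in primed and 617, 636 and 642 CPM in fresh knock-out libraries. Wild-type Ldha stood at 2813, 4055 and 3128 CPM in primed and 456, 524 and 575 CPM in fresh libraries. It rose in both genotypes, with a difference of -1.46 ± 0.237 (SE; adjusted p = 0.00116).

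Pdk1, a kinase that inhibits pyruvate dehydrogenase, and Bnip3, a mitophagy receptor, rose in wild type only. Bnip3 measured 29.4, 27.2 and 35.2 CPM in primed and 25, 22.1 and 24 CPM in fresh knock-out libraries. Wild-type Bnip3 stood at 93.2, 226 and 192 CPM in primed and 22.5, 30.1 and 26.9 CPM in fresh libraries. The knock-out libraries, primed and fresh, lay between 22.1 and 35.2 CPM and every primed wild-type library lay above them, a difference of -2.32 ± 0.34 (SE; adjusted p = 0.000549). The brain-type aldolase Aldoc rose in both genotypes, 3.14 in knock-out and 6.02 in wild type on the log2 scale. Pfkfb3 and Pfkp, which make the activator and the product of the phosphofructokinase step, were larger falls: Pfkp measured 254 ± 27.6 CPM in primed and 440.4 ± 17.1 CPM in fresh knock-out cells, against 466 ± 69.3 CPM in primed and 383 ± 35.3 CPM in fresh wild-type cells (SD, n = 3 each), a difference of -1.08 ± 0.178 (SE; adjusted p = 0.00137).

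**Figure D3:**
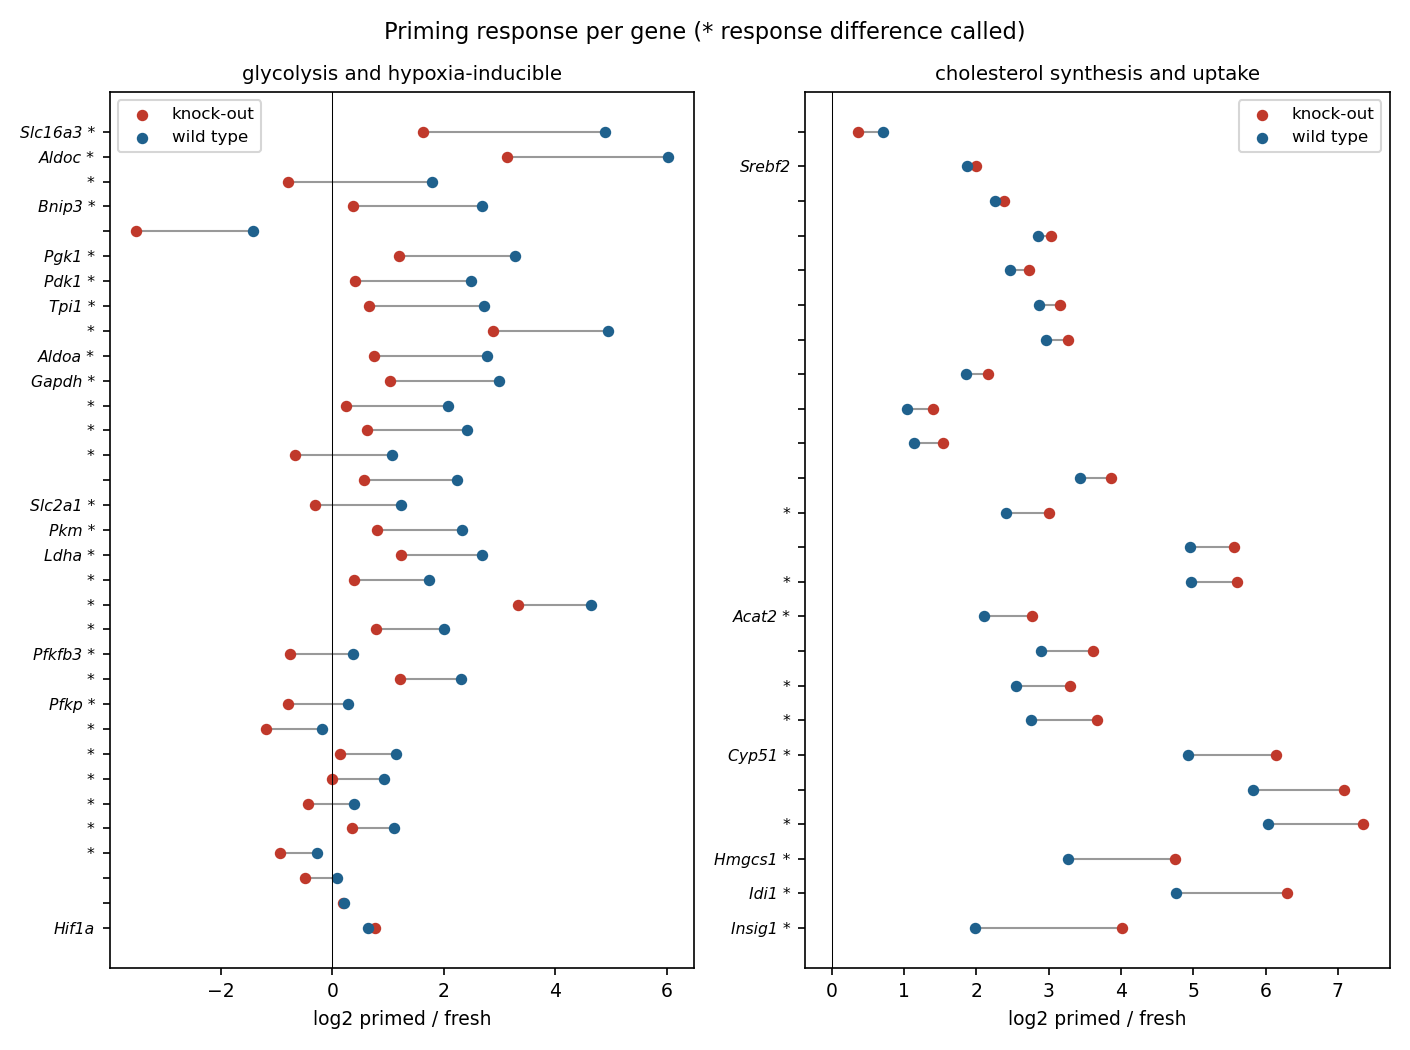
Priming response (horizontal axis, log2 primed over fresh) in knock-out and wild type for every tested gene of the glycolysis list (left) and the cholesterol list (right), ordered by response difference; an asterisk marks genes past the threshold, and genes described in the text are named. The knock-out point lies left of the wild-type point for 32 of 33 glycolytic genes and right of it for 23 of 24 cholesterol genes.

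Of 35 genes of the TCA cycle and respiratory chain, 10 responded less in knock-out and 0 more (28.6%, beside 10.5% of all genes), with a median difference of -0.20. The count of 10 was 5 without primed knock-out replicate 1, and without primed wild-type replicate 3 it was 10 with 5 others then higher. Cox7a2, a subunit of cytochrome c oxidase, measured 240.2 ± 10.8 CPM in primed and 209 ± 1.61 CPM in fresh knock-out cells, against 313 ± 23.6 CPM in primed and 175 ± 6.27 CPM in fresh wild-type cells (SD, n = 3 each), a difference of -0.64 ± 0.122 (SE; adjusted p = 0.00362). Idh3b, a subunit of the NAD-dependent isocitrate dehydrogenase, fell in knock-out (-0.61, adjusted p = 0.00202) and had a difference of -0.95 (adjusted p = 0.00759).

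Outside metabolism the lost rises included surface receptors and granule genes. Tnfrsf9, the co-stimulatory receptor 4-1BB, measured 598, 648 and 790.1 CPM in primed and 194, 212 and 165 CPM in fresh knock-out libraries. Wild-type Tnfrsf9 stood at 1691, 2054 and 1519 CPM in primed and 136, 119 and 141 CPM in fresh libraries. Each fresh knock-out library was above each fresh wild-type library and each primed knock-out library below each primed wild-type library, with a difference of -1.90 ± 0.267 (SE; adjusted p = 0.000405). Fcgr3, the low-affinity IgG receptor through which NK cells kill antibody-coated targets, measured 65, 78.7 and 72.3 CPM in primed and 77, 75.1 and 80 CPM in fresh knock-out libraries. Wild-type Fcgr3 stood at 136, 147 and 139 CPM in primed and 59.8, 55.3 and 59.2 CPM in fresh libraries. It did not change detectably in knock-out (-0.10, adjusted p = 0.406) and rose in wild type (1.28, adjusted p = 1e-08), a difference of -1.38 ± 0.139 (SE; adjusted p = 2.08e-05). Cd96, a nectin-family receptor of NK cells, had a difference of -0.91 ± 0.149 (SE; adjusted p = 0.0012).

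Havcr2, the checkpoint receptor TIM-3, was near 0 in all fresh libraries, at most 0.3 CPM, and reached 5.5, 5.01 and 7.55 CPM in primed knock-out and 26.4, 29 and 27.8 CPM in primed wild-type libraries. The primed groups did not overlap, and the fitted difference was -3.25 ± 0.794 (SE; adjusted p = 0.0151); the call was lost without fresh knock-out replicate 2 or 3, with adjusted p up to 0.0891. Over the list of 37 NK receptors and adaptors 8 responded less and 3 more in knock-out (29.7%, beside 10.5% of all genes). Without primed wild-type replicate 3, 13 responded less and 4 more. Bcl2a1b, a survival factor of the BCL2 family with close copies that can share reads, rose in wild type only, a difference of -1.59 ± 0.224 (SE; adjusted p = 0.000428).

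Gzmc, a granzyme induced in activated killer cells, lies on chromosome 14 from 56231441 to 56234656 on the minus strand in a cluster of near-identical granzyme genes, so its counts may include reads of its copies. It measured 399, 475 and 576 CPM in primed and 3.35, 3.9 and 1.89 CPM in fresh knock-out libraries. Wild-type Gzmc stood at 3234, 2917 and 1969 CPM in primed and 4.57, 1.55 and 1.47 CPM in fresh libraries. Both primed groups were far above both fresh groups, and the primed knock-out libraries were all below the primed wild-type ones. The rise was 7.34 in knock-out and 10.02 in wild type on the log2 scale, a difference of -2.68 ± 0.48 (SE; adjusted p = 0.00236). Its neighbour Gzmd reached 3.22, 2.71 and 2.94 CPM in primed knock-out and 60.9, 33.7 and 22.8 CPM in primed wild-type libraries but stayed at or below 0.136 CPM in every fresh library, and its difference did not pass (adjusted p = 0.109). Srgn, the proteoglycan that packs granule proteins, had 587 ± 37.3 CPM in primed and 611 ± 28.1 CPM in fresh knock-out cells, against 810.2 ± 136 CPM in primed and 507 ± 28.1 CPM in fresh wild-type cells (SD, n = 3 each), a difference of -0.73 ± 0.157 (SE; adjusted p = 0.00739).

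The other lost rises named by size were Mif, Grhpr and Ifitm2. Mif, a cytokine with tautomerase activity whose pseudogene copies can share its reads, measured 190.2 ± 42.6 CPM in primed and 102 ± 6.58 CPM in fresh knock-out cells, against 683 ± 96.8 CPM in primed and 76.5 ± 7.87 CPM in fresh wild-type cells (SD, n = 3 each), a difference of -2.26 ± 0.289 (SE; adjusted p = 0.000233). Grhpr, which reduces glyoxylate and hydroxypyruvate, measured 5.83, 10.6 and 13.6 CPM in primed and 10.8, 11.5 and 15.4 CPM in fresh knock-out libraries. Wild-type Grhpr stood at 38.4, 55.9 and 44.9 CPM in primed and 9.49, 9.38 and 10.7 CPM in fresh libraries. It changed in wild type only, with a difference of -2.55 ± 0.345 (SE; adjusted p = 0.00034). Ifitm2, an interferon-inducible membrane protein with close paralogues, rose in both genotypes and had a difference of -2.22 ± 0.451 (SE; adjusted p = 0.0055). Of the list of interferon-stimulated genes 1 of 25 was called (4%, beside 10.5% of all genes), and 3 without primed wild-type replicate 3, all lower in knock-out. The fitted difference was below 0 for 20 of the 25, with a median of -0.29, beside -0.01 over all genes. Their rise passed for 24 of 25 in knock-out and 25 of 25 in wild type.

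**Figure D4:**
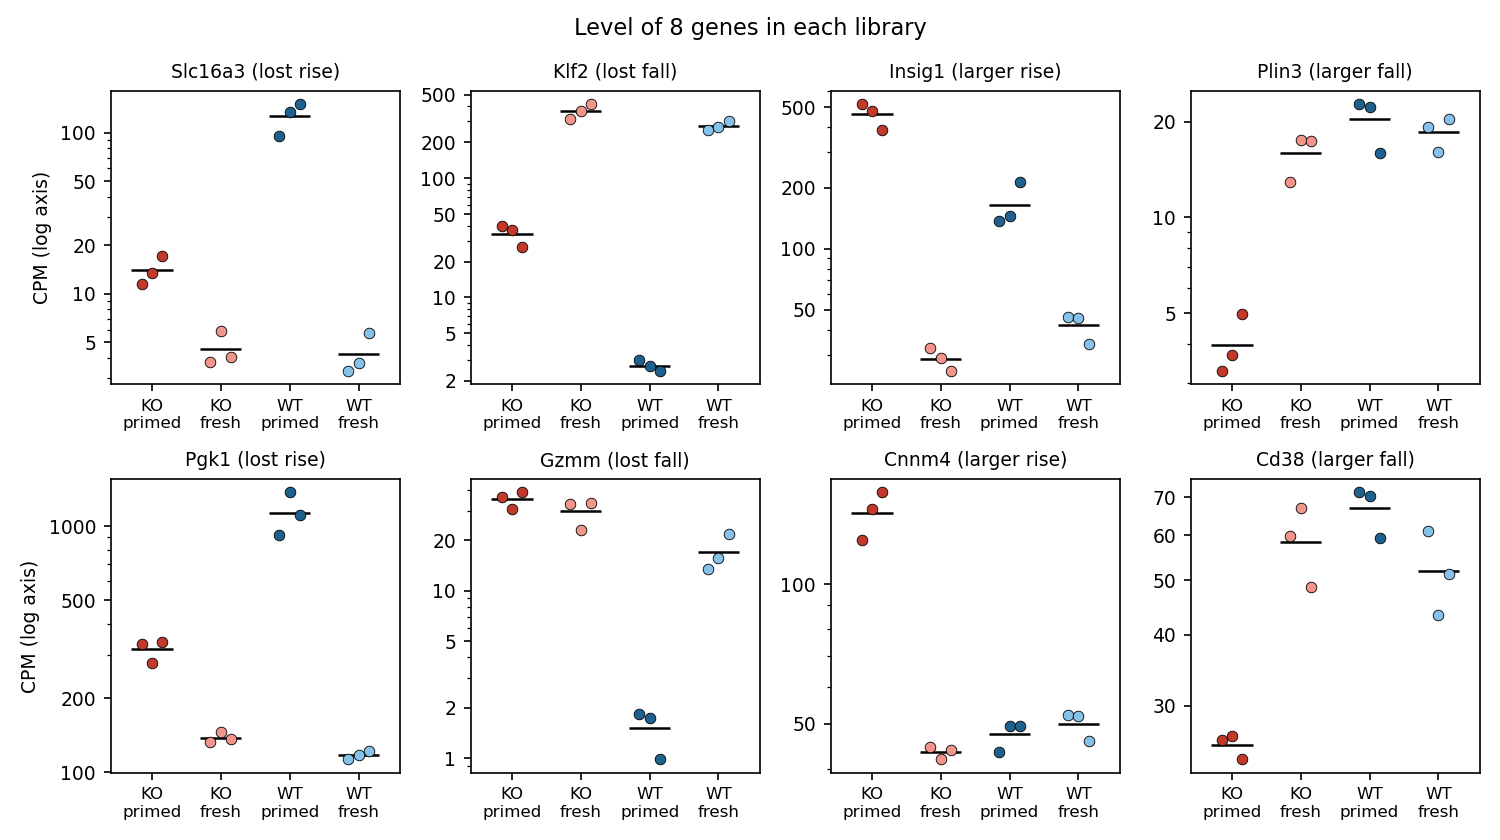
Level (vertical axis, CPM, log axis, a separate scale per panel) of 8 genes in each of the 12 libraries, with 2 genes per class; dots are libraries and bars are group means. In the Slc16a3 and Pgk1 panels primed knock-out lies well below primed wild type, and in the Klf2 and Gzmm panels well above it.

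Genes that keep NK cells circulating were among the lost falls. Of 25 tested genes of egress, homing and adhesion, 7 responded differently, all as lost falls (28%, beside 10.5% of all genes), among them Klf2, S1pr1, S1pr5, Cx3cr1, Cxcr4 and Itgb7. The median response of the list was -1.51 in knock-out and -1.74 in wild type, so that most of it fell in both. Falls passed the threshold for 19 of 25 genes in knock-out (25.7% of all genes fell) and 20 in wild type (27.2%). The count was again 7 without primed wild-type replicate 3 and without primed knock-out replicate 1, and 5 genes were called whichever library was left out. Cxcr4 was lost without fresh wild-type replicate 2, primed knock-out replicate 2 or primed wild-type replicate 1 (adjusted p up to 0.0648) and Itgb7 without fresh wild-type replicate 1 (0.0513).

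Klf2, the transcription factor that maintains quiescence and drives the egress receptors, lies on chromosome 8 from 72319033 to 72321656 on the plus strand (mm10). It measured 39.5, 36.5 and 26.3 CPM in primed and 310.3, 363 and 418 CPM in fresh knock-out libraries. Wild-type Klf2 stood at 2.98, 2.67 and 2.43 CPM in primed and 252, 266 and 301 CPM in fresh libraries. Priming lowered it in every library of both genotypes, and the primed knock-out libraries remained at least 26.3 CPM where no primed wild-type library exceeded 2.98 CPM. The response was -3.42 in knock-out and -6.67 in wild type on the log2 scale, a difference of 3.25 ± 0.245 (SE; adjusted p = 2.73e-06).

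S1pr1, the receptor by which lymphocytes follow sphingosine 1-phosphate out of tissue, lies on chromosome 3 from 115710433 to 115715072 on the minus strand. It measured 19.8, 7.32 and 9.53 CPM in primed and 84.8, 63.5 and 87.7 CPM in fresh knock-out libraries. Wild-type S1pr1 stood at 0.944, 0.764 and 0.123 CPM in primed and 61.9, 62.3 and 62.8 CPM in fresh libraries. The fresh groups did not overlap but were close, and the primed groups were far apart, with a response of -2.70 in knock-out, -6.79 in wild type and a difference of 4.09 ± 0.572 (SE; adjusted p = 0.000402). S1pr5, the sphingosine 1-phosphate receptor of mature NK cells, and Cx3cr1, the fractalkine receptor of the most mature subset, had differences of 2.55 (adjusted p = 0.000342) and 2.83 (adjusted p = 0.00288). The list members Cxcr3 and S1pr4 had differences of 0.05 and -0.12 that did not pass.

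**Figure D5:**
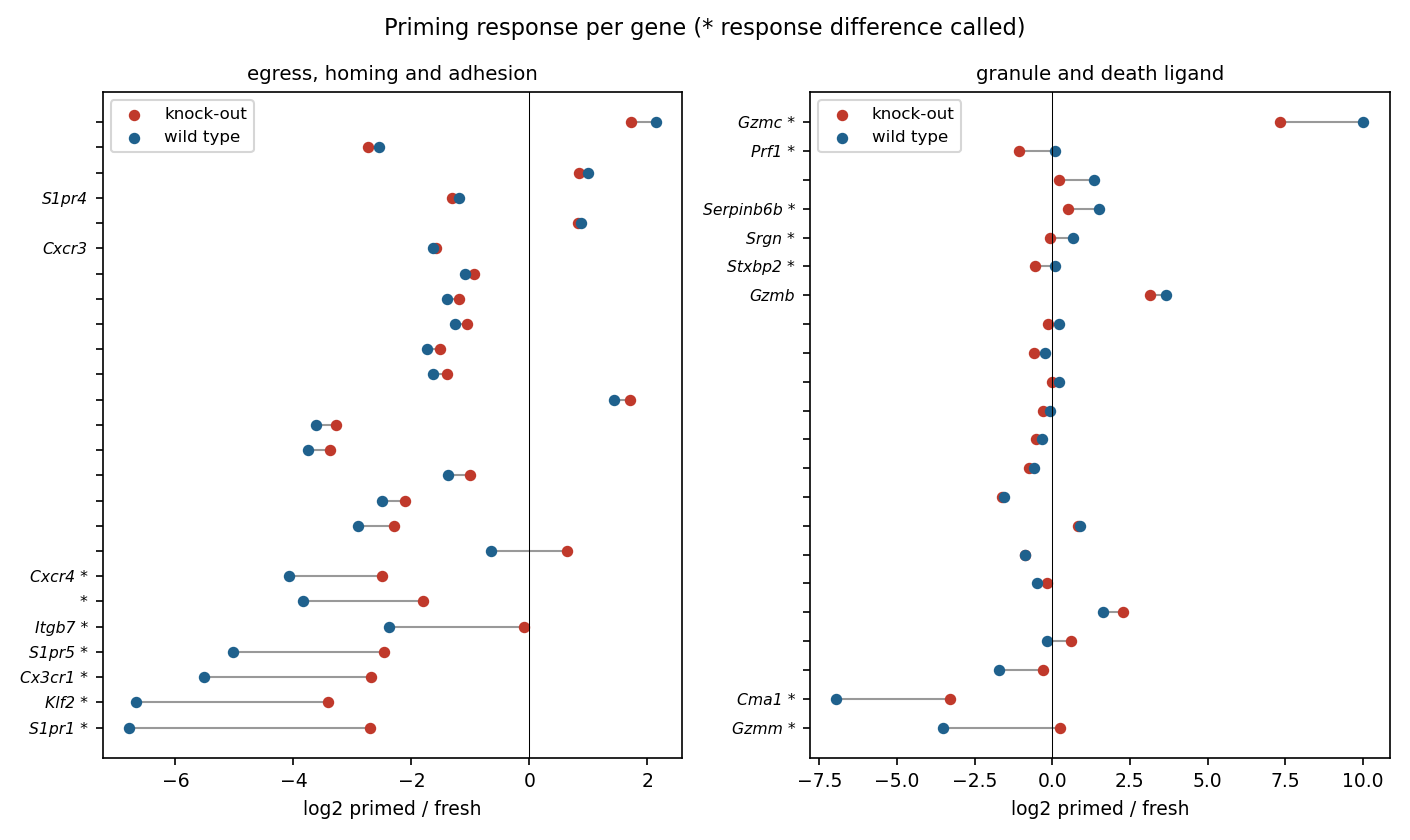
Priming response (horizontal axis, log2 primed over fresh) in knock-out and wild type for the tested genes of egress, homing and adhesion (left) and of granules and death ligands (right), ordered by response difference; an asterisk marks genes past the threshold, and genes described in the text are named. The 7 called genes of the left panel all show the smaller fall in knock-out; 4 granzyme genes with a group mean below 0.1 CPM are left out on the right.

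A pair of proteases showed the same class. Gzmm, a granzyme of resting NK cells, lies on chromosome 10 from 79689020 to 79695261 on the plus strand and measured 36.5, 30.7 and 38.7 CPM in primed and 32.9, 23 and 33.6 CPM in fresh knock-out libraries. Wild-type Gzmm stood at 1.84, 1.75 and 0.983 CPM in primed and 13.6, 15.7 and 21.8 CPM in fresh libraries. It did not change detectably in knock-out (0.24, adjusted p = 0.41) and fell in wild type (-3.51, adjusted p = 1.23e-08), a difference of 3.75 ± 0.36 (SE; adjusted p = 1.31e-05). Cma1, a chymase best known from mast cells, lies on chromosome 14 from 55941451 to 55944675 on the minus strand and measured 37.6, 55.1 and 38.2 CPM in primed and 373, 549.5 and 354 CPM in fresh knock-out libraries. Wild-type Cma1 stood at 4.25, 3.27 and 2.86 CPM in primed and 468, 405 and 411 CPM in fresh libraries. It fell in both genotypes and the primed groups did not overlap, a difference of 3.68 ± 0.295 (SE; adjusted p = 3.79e-06). Of 6 mast cell and basophil markers, Fcer1a, Ms4a2, Tpsb2 and Mcpt4 were at 0 in all 12 libraries. The sum of the 6 was 10.2 to 16.4 CPM in primed knock-out and 0.272 to 0.449 CPM in fresh knock-out libraries, against 3.41 to 4.20 CPM in primed and 0 to 0.271 CPM in fresh wild-type libraries. The sum, like Cma1, was higher in primed knock-out than in primed wild-type libraries, and with priming it was higher where Cma1 was lower. Most of it was Mcpt8, a basophil protease, with 10.2 to 14.4 CPM in primed knock-out and 2.4 to 2.97 CPM in primed wild-type libraries, and its part in the result for Cma1 was not tested.

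Among further lost falls of large size, Rap1gap2, which switches off the adhesion GTPase RAP1, had 18.8 ± 0.995 CPM in primed and 54.6 ± 3.72 CPM in fresh knock-out cells, against 3.29 ± 0.828 CPM in primed and 57.9 ± 4.14 CPM in fresh wild-type cells (SD, n = 3 each), a difference of 2.60 ± 0.235 (SE; adjusted p = 7.74e-06). Fcgr2b, the inhibitory IgG receptor, also fell in both genotypes and by less in knock-out, -2.95 beside -5.36 in wild type, a difference of 2.41 ± 0.352 (SE; adjusted p = 0.00054).

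Among transcription factors and signalling genes, 5 of 32 lineage, memory and maturation factors responded more positively in knock-out and 1 less (18.8%, beside 10.5%). Zeb2, a factor of terminal NK maturation, measured 29, 28.4 and 26.6 CPM in primed and 110.0, 145 and 103 CPM in fresh knock-out libraries. Wild-type Zeb2 stood at 15.2, 16.7 and 19.3 CPM in primed and 145, 181 and 159.5 CPM in fresh libraries. It fell in all primed libraries and by less in knock-out, a difference of 1.15 ± 0.211 (SE; adjusted p = 0.00269). Tox, needed for NK development, had a difference of 0.88 ± 0.168 (SE; adjusted p = 0.00381). Nfil3, required for NK commitment, ran the other way: it fell in knock-out (-1.08, adjusted p = 5.46e-06) and not detectably in wild type (-0.24, adjusted p = 0.144), a difference of -0.84 ± 0.193 (SE; adjusted p = 0.0111). Zfp683, which encodes the tissue-residency factor HOBIT, was low everywhere, with 2.08, 3.28 and 1.59 CPM in primed knock-out and 0.236, 0 and 0.0307 CPM in primed wild-type libraries; its call was lost without 4 single libraries, fresh knock-out replicates 1 and 3, fresh wild-type replicate 1 and primed wild-type replicate 2 (adjusted p up to 0.155).

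Il15 itself fell in wild type and not detectably in knock-out, with 8.85 ± 1.8 CPM in primed and 10.6 ± 1.76 CPM in fresh knock-out cells, against 2.58 ± 0.596 CPM in primed and 8.72 ± 0.403 CPM in fresh wild-type cells (SD, n = 3 each) and a difference of 1.51 ± 0.274 (SE; adjusted p = 0.00256). Socs3, a feedback inhibitor of cytokine signalling, had 4.1 ± 1.13 CPM in primed and 52 ± 10.7 CPM in fresh knock-out cells, against 2.11 ± 1.29 CPM in primed and 104 ± 12.1 CPM in fresh wild-type cells, a difference of 1.89 ± 0.456 (SE; adjusted p = 0.0139); its fresh knock-out libraries all lay below its fresh wild-type libraries. Fos, a subunit of AP-1, measured 53.8, 76.8 and 118 CPM in primed and 1319, 1340.4 and 1551 CPM in fresh knock-out libraries. Wild-type Fos stood at 16.4, 13.2 and 18 CPM in primed and 759, 698 and 727 CPM in fresh libraries. Priming lowered it in both genotypes, and each knock-out library was above each wild-type library of the same condition, a difference of 1.43 ± 0.318 (SE; adjusted p = 0.00897). Pmaip1, the pro-apoptotic NOXA, did not change detectably in knock-out (0.02, adjusted p = 0.945) and fell in wild type (-2.04, adjusted p = 1.45e-06), a difference of 2.06 ± 0.326 (SE; adjusted p = 0.000936).

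Genes of cholesterol synthesis were among the larger rises. All 24 tested genes of the cholesterol list rose with priming in knock-out (23% of all genes did) and in wild type (26.5%). The rise was larger in knock-out for 10 of them and smaller for 0 (41.7%, beside 10.5% of all genes). The median response was 3.28 in knock-out and 2.80 in wild type, the median difference 0.60, and the fitted difference was above 0 for 23 of 24. The count was 9 without primed wild-type replicate 3 and 11 without primed knock-out replicate 1, and 6 of the 10 were called whichever library was left out, among them Acat2, Cyp51, Hmgcs1, Idi1 and Insig1.

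Insig1, the sterol sensor that holds SREBP in the endoplasmic reticulum and is itself an SREBP target, lies on chromosome 5 from 28071363 to 28078662 on the plus strand (mm10). It measured 521, 482 and 389 CPM in primed and 32.3, 28.9 and 25 CPM in fresh knock-out libraries. Wild-type Insig1 stood at 137, 145 and 215 CPM in primed and 46.4, 45.5 and 34 CPM in fresh libraries. Primed knock-out libraries were the highest of all, and priming raised the gene 4.01 in knock-out and 1.98 in wild type on the log2 scale, a difference of 2.03 ± 0.393 (SE; adjusted p = 0.00412). Idi1, which isomerises isopentenyl diphosphate, measured 543, 552 and 543 CPM in primed and 8.43, 6.5 and 6.11 CPM in fresh knock-out libraries. Wild-type Idi1 stood at 139.6, 194 and 163 CPM in primed and 6.16, 5.77 and 6.39 CPM in fresh libraries. The fresh groups were close and the primed knock-out libraries each exceeded every primed wild-type library, a difference of 1.52 ± 0.198 (SE; adjusted p = 0.000245). Hmgcs1, which makes HMG-CoA from acetyl-CoA and acetoacetyl-CoA, measured 848, 906 and 870.0 CPM in primed and 31.7, 34.7 and 32.1 CPM in fresh knock-out libraries. Wild-type Hmgcs1 stood at 249.8, 393 and 335 CPM in primed and 33.5, 37 and 30.8 CPM in fresh libraries. The response difference was 1.46 ± 0.188 (SE; adjusted p = 0.000233).

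The promoter windows of Hmgcs1 and Idi1, the called cholesterol genes of smallest p, are printed for the sterol response element TCACNCCAC, searched on both strands and marked in capitals. They are 300-base RefSeq windows (GRCm38.p6) on the plus strand, Hmgcs1 at chr13:119690101-119690400 and Idi1 at chr13:8885356-8885655.
Hmgcs1: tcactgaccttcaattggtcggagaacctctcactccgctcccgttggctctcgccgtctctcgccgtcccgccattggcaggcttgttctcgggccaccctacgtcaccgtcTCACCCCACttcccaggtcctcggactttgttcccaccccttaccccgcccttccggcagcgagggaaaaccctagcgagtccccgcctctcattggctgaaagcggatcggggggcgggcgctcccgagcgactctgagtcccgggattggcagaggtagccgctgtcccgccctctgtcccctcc
Idi1: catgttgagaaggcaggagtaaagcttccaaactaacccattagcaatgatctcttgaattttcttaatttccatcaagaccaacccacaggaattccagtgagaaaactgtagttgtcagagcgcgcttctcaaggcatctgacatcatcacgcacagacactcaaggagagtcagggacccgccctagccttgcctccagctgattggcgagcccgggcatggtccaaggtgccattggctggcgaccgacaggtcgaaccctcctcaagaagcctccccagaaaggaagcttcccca
Hmgcs1 holds 1 match and Idi1 none in this window. The motif occurred in 1 of the 20 windows of 17 matched genes of the list (5%), in 2 of the 47 windows of the glycolysis list (4.26%) and in 1.24% of all windows. In the cholesterol windows ACGTG and CACGTG each occurred in 20%, beside 19.6% and 7.15% of all windows. Here too called and uncalled members of the list were counted alike.

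Cyp51, the lanosterol demethylase, reached 565 ± 38.3 CPM in primed and 8.03 ± 2.2 CPM in fresh knock-out cells, against 276 ± 21.1 CPM in primed and 9.05 ± 1.22 CPM in fresh wild-type cells (SD, n = 3 each), a difference of 1.21 ± 0.227 (SE; adjusted p = 0.0032). Srebf2, the transcription factor of the pathway, had a difference of 0.12 that did not pass (adjusted p = 0.777).

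Fasn, fatty acid synthase, measured 206, 269 and 278 CPM in primed and 57.5, 60.1 and 61.9 CPM in fresh knock-out libraries. Wild-type Fasn stood at 101, 104 and 112 CPM in primed and 56.3, 55.3 and 69.4 CPM in fresh libraries. It rose in both genotypes and more in knock-out, a difference of 1.26 ± 0.284 (SE; adjusted p = 0.00983). Of the 16 genes of the fatty acid list 2 responded more positively (Fasn and the elongase Elovl7, the second as a lost fall) and 1 less (18.8%, beside 10.5% of all genes). The last was the desaturase Scd1, a lost rise with a difference of -2.69 ± 0.836 (SE; adjusted p = 0.0485) that was called in 0 of the 12 fits with a library left out (adjusted p 0.0507 to 0.171). Acaca, the carboxylase before Fasn, had a difference of 0.04 (adjusted p = 0.953). Of 29 genes of acetyl-CoA supply and histone acetylation 3 were called (10.3%, beside 10.5% of all genes), 2 responding more positively and 1 less. Without primed wild-type replicate 3 it was 5 and 1, without primed knock-out replicate 1 it was 0 and 1, and 0 of the 3 were called whichever library was left out. Among them was Acss2, which makes acetyl-CoA from acetate, at 14.3 ± 5.02 CPM in primed and 37.5 ± 6.95 CPM in fresh knock-out cells, against 8.38 ± 6 CPM in primed and 75 ± 6.85 CPM in fresh wild-type cells (SD, n = 3 each); its difference of 1.74 ± 0.542 (SE; adjusted p = 0.0484) held in 2 of the 12 fits with a library left out, those without primed knock-out replicate 3 or primed wild-type replicate 3, and had an adjusted p of up to 0.117 in the others.

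Genes of DNA replication were also among the larger rises. Of 38 cell cycle genes 6 responded more positively in knock-out and 1 less (18.4%, beside 10.5% of all genes, not matched for level). Without primed wild-type replicate 3 it was 10 and 0, and 4 of the called genes were called whichever library was left out. E2f2, an S-phase transcription factor, measured 45.5, 57.2 and 49.6 CPM in primed and 13, 15.8 and 12.4 CPM in fresh knock-out libraries. Wild-type E2f2 stood at 20.6, 20.9 and 21.5 CPM in primed and 12.2, 11.2 and 14.8 CPM in fresh libraries. It rose in both genotypes, and the primed groups did not overlap, a difference of 1.16 ± 0.209 (SE; adjusted p = 0.00245). Rrm1, a ribonucleotide reductase subunit, had 586 ± 32 CPM in primed and 76.5 ± 5.3 CPM in fresh knock-out cells, against 425 ± 41.7 CPM in primed and 85.6 ± 8.93 CPM in fresh wild-type cells (SD, n = 3 each), a difference of 0.62 ± 0.133 (SE; adjusted p = 0.00739), and Pcna, the replication clamp, had a difference of 0.61 ± 0.13 (SE; adjusted p = 0.0074). Mki67, the marker of cycling cells, had a difference of 0.88 ± 0.281 (SE; adjusted p = 0.0533) that did not pass.

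Among genes called whichever library was left out and at 3 or more mean log2 CPM, the larger rises of greatest size outside the lists were Fam102b, Khdc1b, Zfp367, Cnnm4, H2bc4 and Pole4. Cnnm4, a magnesium transporter, lies on chromosome 1 from 36471620 to 36508764 on the plus strand and measured 124, 145 and 158 CPM in primed and 44.7, 41.9 and 44 CPM in fresh knock-out libraries. Wild-type Cnnm4 stood at 43.5, 49.5 and 49.5 CPM in primed and 52.2, 52 and 46 CPM in fresh libraries. Only the primed knock-out libraries stood apart, and the response was 1.71 in knock-out and -0.08 in wild type, a difference of 1.79 ± 0.159 (SE; adjusted p = 7.74e-06). Fam102b had 19.5 ± 1.11 CPM in primed and 6.53 ± 1.89 CPM in fresh knock-out cells, against 7.09 ± 1.32 CPM in primed and 9.8 ± 3.56 CPM in fresh wild-type cells (SD, n = 3 each), a difference of 2.04 ± 0.339 (SE; adjusted p = 0.00138). Zfp367, a zinc-finger factor, measured 57.6, 39 and 32.6 CPM in primed and 7.03, 10.7 and 8.49 CPM in fresh knock-out libraries. Wild-type Zfp367 stood at 16.4, 15.2 and 14.6 CPM in primed and 12.3, 10.2 and 10.3 CPM in fresh libraries. Its primed knock-out libraries were the highest 3 of the 12, a difference of 1.81 ± 0.362 (SE; adjusted p = 0.00499). Pole4, a small subunit of DNA polymerase epsilon, had a difference of 1.49 ± 0.328 (SE; adjusted p = 0.00871). Khdc1b and the histone gene H2bc4 belong to families of close copies, and their differences of 1.85 and 1.73 are uncertain for that reason.

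The larger falls included Plin3, Ugt1a7c, Tcn2 and Prf1. Plin3, a coat protein of lipid droplets, lies on chromosome 17 from 56277476 to 56292873 on the minus strand and measured 3.29, 3.68 and 4.96 CPM in primed and 13, 17.5 and 17.4 CPM in fresh knock-out libraries. Wild-type Plin3 stood at 22.8, 22.3 and 16 CPM in primed and 19.2, 16.1 and 20.4 CPM in fresh libraries. All primed knock-out libraries were below the other 9, and priming changed the gene in knock-out (-2.00, adjusted p = 8.74e-07) and not detectably in wild type (0.13, adjusted p = 0.609), a difference of -2.13 ± 0.297 (SE; adjusted p = 0.000402). Ugt1a7c, a glucuronosyltransferase whose exons are shared with the other genes of its locus, so that its reads are uncertain, measured 9.59, 6.03 and 7.75 CPM in primed and 46.6, 29.7 and 26.1 CPM in fresh knock-out libraries. Wild-type Ugt1a7c stood at 35.9, 32.8 and 28 CPM in primed and 32.3, 24.2 and 28.3 CPM in fresh libraries. It too was lowest in the primed knock-out libraries, a difference of -2.32 ± 0.314 (SE; adjusted p = 0.00034). Tcn2, the transcobalamin that carries vitamin B12, fell in both genotypes and more in knock-out, a difference of -1.92 ± 0.31 (SE; adjusted p = 0.00111).

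Prf1, perforin, the pore-forming protein of cytotoxic granules, lies on chromosome 10 from 61297833 to 61304680 on the plus strand. It measured 1146, 1432 and 1533 CPM in primed and 2553, 3438 and 2593 CPM in fresh knock-out libraries. Wild-type Prf1 stood at 2953, 3069.6 and 2541 CPM in primed and 2425, 2708 and 2975 CPM in fresh libraries. The primed knock-out libraries were below all others, which overlapped, and the difference was -1.14 ± 0.272 (SE; adjusted p = 0.0131). Pglyrp1, a peptidoglycan-recognition protein of granules, had 92.8 ± 9.78 CPM in primed and 289 ± 7.54 CPM in fresh knock-out cells, against 204 ± 35.8 CPM in primed and 207 ± 17.4 CPM in fresh wild-type cells (SD, n = 3 each), a difference of -1.62 ± 0.269 (SE; adjusted p = 0.00138). Tyrobp, the adaptor DAP12 of activating receptors, fell in both genotypes and more in knock-out, 359.8 ± 66.5 CPM in primed and 1773 ± 169 CPM in fresh knock-out cells, against 696 ± 109 CPM in primed and 1423 ± 155 CPM in fresh wild-type cells, a difference of -1.27 ± 0.253 (SE; adjusted p = 0.00483). Over the 26 genes of granules and death ligands, 2 responded more positively (Gzmm and Cma1) and 5 less (Gzmc, Prf1, Serpinb6b, Srgn and Stxbp2), which is 26.9% beside 10.5% of all genes.

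Further larger falls were Myadm, Ctla2a, Il16 and Tnfrsf18. Myadm, a multispanning membrane protein, measured 13.8, 13.7 and 11.4 CPM in primed and 37, 41.7 and 39.6 CPM in fresh knock-out libraries. Wild-type Myadm stood at 25.4, 42.6 and 33.9 CPM in primed and 23.4, 29.5 and 30.8 CPM in fresh libraries. The primed knock-out libraries lay below all others, a difference of -1.89 ± 0.251 (SE; adjusted p = 0.000306). Ctla2a, which has close copies, had a difference of -1.52 ± 0.208 (SE; adjusted p = 0.000366). Il16, the precursor of a CD4-binding chemoattractant, had 147 ± 18.2 CPM in primed and 245 ± 7.79 CPM in fresh knock-out cells, against 202 ± 20.7 CPM in primed and 185 ± 8.49 CPM in fresh wild-type cells (SD, n = 3 each), a difference of -0.86 ± 0.179 (SE; adjusted p = 0.00625). Tnfrsf18, the co-stimulatory receptor GITR, had a difference of -1.33 ± 0.271 (SE; adjusted p = 0.0055).

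For 130 genes priming moved the knock-out and the wild type in opposite directions, both past the threshold: 38 rose in knock-out and fell in wild type, and 92 fell in knock-out and rose in wild type. Of the 130, 98 had a response difference called whichever library was left out. Cd69, an early activation marker that retains cells in tissue by binding S1PR1, measured 233, 255 and 339 CPM in primed and 394, 489 and 525 CPM in fresh knock-out libraries. Wild-type Cd69 stood at 587, 488 and 440.2 CPM in primed and 242, 239.6 and 262 CPM in fresh libraries. Fresh knock-out libraries were all above fresh wild-type libraries, and primed knock-out libraries were all below primed wild-type ones, with responses of -0.77 (adjusted p = 0.00041) in knock-out and 1.03 (adjusted p = 1.85e-05) in wild type. Cd38, an NAD-consuming ectoenzyme, lies on chromosome 5 from 43868553 to 43912375 on the plus strand and measured 26.1, 26.6 and 24.1 CPM in primed and 59.8, 67 and 48.6 CPM in fresh knock-out libraries. Wild-type Cd38 stood at 71.4, 70.3 and 59.4 CPM in primed and 61, 43.4 and 51.3 CPM in fresh libraries. It fell in knock-out and rose in wild type, a difference of -1.56 ± 0.196 (SE; adjusted p = 0.00021).

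The opposite responses of smallest p were chosen after their values were seen and include Prdx5, Ing3 and Plin2. Prdx5, a mitochondrial and peroxisomal peroxiredoxin, measured 101, 106 and 102 CPM in primed and 202, 196 and 191 CPM in fresh knock-out libraries. Wild-type Prdx5 stood at 212, 236 and 232 CPM in primed and 174, 168 and 186 CPM in fresh libraries. No groups overlapped: primed knock-out was lowest and primed wild type highest, with the fresh groups between them, and the difference was -1.29 ± 0.11 (SE; adjusted p = 6.02e-06). Ing3, a subunit of the NuA4 histone acetyltransferase complex, measured 184, 182 and 168 CPM in primed and 101, 98.9 and 113 CPM in fresh knock-out libraries. Wild-type Ing3 stood at 69.9, 77.3 and 71.5 CPM in primed and 101, 109 and 102 CPM in fresh libraries. It was level in the fresh groups, up in primed knock-out and down in primed wild type, a difference of 1.28 ± 0.117 (SE; adjusted p = 7.74e-06). Plin2, another lipid droplet protein, responded -0.59 in knock-out and 0.82 in wild type. Sod2, mitochondrial superoxide dismutase, had 149 ± 7.53 CPM in primed and 97.8 ± 2.93 CPM in fresh knock-out cells, against 56.1 ± 12.1 CPM in primed and 99.2 ± 1.86 CPM in fresh wild-type cells (SD, n = 3 each), a difference of 1.42 ± 0.26 (SE; adjusted p = 0.00268), and Wdfy1, an endosomal adaptor, had 6.07 ± 2.99 CPM in primed and 13.5 ± 1.51 CPM in fresh knock-out cells, against 128 ± 37.7 CPM in primed and 71.9 ± 15.7 CPM in fresh wild-type cells, a difference of -1.96 ± 0.438 (SE; adjusted p = 0.00931). All 6 knock-out libraries of Wdfy1, fresh or primed, lay below all 6 wild-type ones.

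Among genes at the centre of NK function, Gzmb, Ifng, Eomes, Tbx21 and Myc responded to priming without a response difference past the threshold. Gzmb, the main granzyme, lies on chromosome 14 from 56258838 to 56262260 on the minus strand and measured 7891, 9579 and 11673 CPM in primed and 889, 1373 and 1048 CPM in fresh knock-out libraries. Wild-type Gzmb stood at 17635, 16376 and 12892 CPM in primed and 1254, 1209.9 and 1275 CPM in fresh libraries. It rose in both genotypes, 3.14 in knock-out and 3.65 in wild type, and the difference of -0.51 ± 0.303 (SE; adjusted p = 0.299) did not pass although each primed knock-out library was below each primed wild-type library. Ifng, interferon gamma, fell in both, with 70.2 ± 2.73 CPM in primed and 585 ± 32.5 CPM in fresh knock-out cells, against 77.8 ± 12.9 CPM in primed and 560.2 ± 77.5 CPM in fresh wild-type cells (SD, n = 3 each) and a difference of -0.21 ± 0.199 (SE; adjusted p = 0.538). The lineage factors Eomes and Tbx21 fell in both genotypes, with differences of 0.37 ± 0.171 (SE; adjusted p = 0.181) and 0.44 ± 0.175 (SE; adjusted p = 0.115). Myc, a transcription factor that drives cell growth, rose in both with a difference of -0.12 ± 0.302 (SE; adjusted p = 0.846), and of 32 MYC target and ribosome biogenesis genes 4 were called (12.5%, beside 10.5%). Il2rb, the receptor chain that binds IL-15, stood at 0.751-fold of fresh in primed knock-out and 1.04-fold in primed wild type. Its difference of -0.47 ± 0.21 (SE; adjusted p = 0.162) did not pass. Klrk1, which encodes NKG2D, passed with 0.49 ± 0.131 (SE; adjusted p = 0.0233) as a lost fall, but not without fresh knock-out replicate 2 or 3, fresh wild-type replicate 2 or 3 or primed knock-out replicate 2 (adjusted p up to 0.068).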

How the data were processed

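RNA of sorted splenic NK cells was sequenced in 18 libraries, and the deposited table gives the authors' expected counts per gene, estimated reads that are not scaled between libraries. The genome was mm10 and the tools were DRAGEN, bcl2fastq and edgeR, per the submitters' processing notes. Their versions, settings and gene annotation: not given in the sources used here. Of the values above 0, 30% were not whole, so counts were rounded, where the plan had assumed whole counts. Of 55487 gene identifiers, 168 were repeated with the same values and were kept once. Reads carry no molecular identifiers.

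Response differences were tested with edgeR 4.0.16 (R 4.3.3): TMM factors, the expression filter by group (14864 genes kept), 1 mean per group over all 18 libraries, quasi-likelihood F tests with 12 residual degrees of freedom, and Benjamini-Hochberg adjustment over all genes at 0.05. The 6 further libraries, of primed cells stimulated through NKG2D, are not in the contrast. They enter the estimate of spread, the expression filter and the TMM factors. Each gene had 1 estimate of spread for all groups. The common biological coefficient of variation, however, ran from 0.142 in fresh to 0.38 in primed knock-out cells. What this inequality did to the calls was not tested. With the 12 libraries alone 14335 genes were tested and 1681 called. Standard errors (SE) of the log2 difference were worked back from the test, as its size divided by the square root of the F statistic. They are approximate, above all for genes near 0 in a group. Levels are CPM in each library or means ± SD of 3. P-values reflect only the variation among these libraries, which may be technical. Precision is limited by depth, 14772350 to 34111299 counts.

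The members, gene lists and tests were chosen with earlier results of these data known. Genes were named by a rule: Acly; in each class the 8 of largest difference called in every fit with a library left out, at 3 or more mean log2 CPM; the 2 of smallest p per list and direction; and a set of NK and metabolic genes, called or not. A subset of these is printed; a few picked genes go unreported here. Outside the rule stand Gzmd, Hif1a, Srebf2, Acaca, Cxcr3, S1pr4 and further list members, and were chosen after their values were seen. Aldoa has a pair of identifiers, and the one with the higher level was used. Other settings were DESeq2 1.42.0, limma voom with sample quality weights (limma 3.58.1), RLE factors, other filters, the 12 libraries alone, replicate blocks, a minimum 1.5-fold difference and each library left out. Promoters were matched by symbol. The test script was tested on simulated data. That simulation gave all groups the same spread for a gene, unlike these libraries, so it cannot show how the test behaves under unequal spread. The authors' comparison tables were not used.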

Additional observations from a re-analysis of the deposited data

Results flagged for a closer look

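Every gene with a response difference meets the criterion for listing here, a difference between the genotypes in the effect of the same treatment, and there were 1559 of them. The 6 named genes whose responses were past the threshold in opposite directions are Cd69, with a response difference of -1.80 on the log2 scale, Cd38 at -1.56, the NK-cell lectin-like gene Klri2 at 1.05, Sod2 at 1.42, Uqcrc2, a core subunit of respiratory complex III, at -0.67, and Wdfy1 at -1.96. Klri2 has close copies in its gene cluster and its reads may be shared. Klri2 measured 664, 717 and 701 CPM in primed and 549, 532 and 519 CPM in fresh knock-out libraries. Wild-type Klri2 stood at 325, 347 and 299 CPM in primed and 491, 534 and 525 CPM in fresh libraries. Uqcrc2 measured 163, 164 and 180.3 CPM in primed and 200.2, 196 and 204 CPM in fresh knock-out libraries. Wild-type Uqcrc2 stood at 232, 252 and 211 CPM in primed and 167, 172 and 181 CPM in fresh libraries. No group had the 4 samples that a search for single outlying libraries would need.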

How the results depend on the processing

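No gene called in the full data changed the sign of its response difference under any setting, and of the 95 named genes only Myc, which was not called, did so: it ranged from -0.23 without fresh wild-type replicate 3 to 0.01 without fresh wild-type replicate 1. The counts of genes moved more. Higher responses in knock-out numbered 1087 with no filter on low counts, 976 with DESeq2, 1997 with limma voom with sample quality weights (a change of test and of weighting together, called limma voom from here), 90 at a minimum 1.5-fold difference and 1261 with primed knock-out 1 and primed wild-type 3 both left out. Lower responses numbered 2160 with limma voom and 99 at 1.5-fold. Lost rises were 1391 with limma voom and 66 at 1.5-fold. Lost falls were 662 with no filter, 580 with DESeq2, 1361 with limma voom, 55 at 1.5-fold and 898 without the 2 primed libraries. Larger rises were 425 with no filter, 396 with DESeq2, 636 with limma voom and 35 at 1.5-fold. Larger falls were 769 with limma voom and 33 at 1.5-fold. At a mean log2 CPM of at least 3 the knock-out response was called for 4821 genes, since fewer genes were tested. The cause of the other shifts was not tested. The setting that leaves out both primed libraries was chosen after seeing the data.

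With 1 library left out at a time, higher responses ranged from 340 to 1214, lower responses from 452 to 1239, lost rises from 273 to 790, lost falls from 197 to 880, larger rises from 143 to 334, larger falls from 174 to 449, wild-type responses from 6951 to 8803 and knock-out responses from 6077 to 7456. The highest value of the first 6 counts came without primed wild-type replicate 3.

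The labels do not say that a replicate number marks a shared animal. Deviations of same-numbered primed and fresh libraries correlated between 0.0614 and 0.269 in knock-out and between -0.088 and 0.168 in wild type, and over all pairs of groups between -0.435 and 0.272 (7951 genes). Differently numbered primed and fresh libraries correlated between -0.37 and 0.15 in knock-out and between -0.187 and 0.186 in wild type. Sex-linked genes matched by number within each genotype, but not every correlation was over 0.1, so the numbers were not used to pair libraries. If same-numbered libraries do share an animal, the main test ignores that pairing. Of the 1559 genes, 946 stayed called with a replicate block within genotype. With a replicate block 509 responses were higher and 822 lower; with a replicate block within genotype 368 were higher and 604 lower (380 lost rises, 224 lost falls, 144 larger rises and 224 larger falls), and 14 of the named genes no longer passed, Acss2, Elovl7 and Klrk1 among them. Depth limits calls for genes near 0 in fresh cells, such as the granzymes next to Gzmc, and in primed knock-out replicate 1. At an unadjusted p of 0.05, 3924 genes passed.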

Other observations

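Antioxidant genes were called in both directions. Of 20 tested genes 3 responded more positively in knock-out and 3 less (30%, beside 10.5% of all genes). Sod1, the cytosolic superoxide dismutase, measured 1529.5, 1573 and 1657 CPM in primed and 616, 584 and 659 CPM in fresh knock-out libraries. Wild-type Sod1 stood at 926, 816 and 1078 CPM in primed and 615, 572 and 614 CPM in fresh libraries. It rose in both genotypes and the primed groups did not overlap, a difference of 0.71 ± 0.138 (SE; adjusted p = 0.00438). Txn1, thioredoxin, and Gpx4, which reduces lipid peroxides, ran the other way, with differences of -0.76 ± 0.155 (SE; adjusted p = 0.00548) and -0.79 ± 0.178 (SE; adjusted p = 0.00946). Taldo1, a transaldolase of the pentose phosphate pathway, had 228 ± 8.94 CPM in primed and 337 ± 14.7 CPM in fresh knock-out cells, against 314 ± 21.8 CPM in primed and 286 ± 17.1 CPM in fresh wild-type cells (SD, n = 3 each), a difference of -0.70 ± 0.136 (SE; adjusted p = 0.00427).

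Pecam1, an adhesion molecule counted in the endothelium and stroma list, was a lost rise with a response difference of -1.73. Its level was 54.8 to 66.0 CPM in primed and 65.5 to 88.4 CPM in fresh knock-out libraries, against 118 to 171 CPM in primed and 49.1 to 72.6 CPM in fresh wild-type libraries. Cdh5, which defines endothelium, was at 0 in all 12 libraries. Spry2, an inhibitor of receptor tyrosine kinase signalling, fell in both genotypes and by less in knock-out, with 735 ± 114 CPM in primed and 1885 ± 76.8 CPM in fresh knock-out cells, against 350.2 ± 66.3 CPM in primed and 2087 ± 159 CPM in fresh wild-type cells and a difference of 1.22 ± 0.288 (SE; adjusted p = 0.0127). Trp53inp1, a p53-induced stress gene, had a difference of 0.96 ± 0.187 (SE; adjusted p = 0.00419).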
